A study of Homo sapiens with 6 samples.

Results

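The genes described here build RNA polymerase II (Pol II) and the machinery that travels with it, from the release of the paused enzyme to the cleavage of the finished transcript. They are 50 genes chosen by name: 11 Pol II subunits, 21 elongation factors and 18 factors of 3′ end processing and termination. They were found by their Ensembl identifiers among the 60483 genes listed, and all 50 passed the filter on low counts that left 16198 genes for testing. The rule itself used no measured value of these libraries, although the genes were chosen with earlier results of these data known.

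RNA of A2780 cells, an established human ovarian carcinoma line, was sequenced in 3 libraries of the parental cells (WT) and 3 libraries of a clone edited in CDK12 (A2780 CDK12 KO). The KO cells came from 2 rounds of transfection with a plasmid carrying Cas9, GFP and a U6-driven guide RNA against exon 1 of CDK12, and the KO group is a single clone. Both groups were grown in RPMI medium, and the labels name no treatment. Nothing in the labels says that the 3 libraries of a group were separate cultures, so the p-values measure only the spread between these libraries, which may be technical, and the effect of CDK12 loss and of the choice of this clone cannot be told apart.

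Pol II carries a long tail of repeats on its largest subunit, the C-terminal domain, which kinases phosphorylate as the enzyme moves along a gene. NELF and DSIF hold the enzyme shortly after the start, P-TEFb (CDK9 with cyclin T) releases it, and CDK12 with cyclin K phosphorylates the tail over the body of the gene. Cleavage and polyadenylation factors are recruited to that tail, recognise the poly(A) signal, cut the transcript and add its tail, and the exonuclease XRN2 degrades the RNA still attached to the enzyme, which ends transcription. CDK12 is known mainly for keeping long genes transcribed to their ends.

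Total counts ran from 11098400 (WT replicate 3) to 30899045 per library, so that 3 counts equal 0.0971 to 0.270 CPM (counts in every 1000000 counts of a library). Among 10 epithelial and ovarian carcinoma markers, VIM, KRT18, KRT8 and EPCAM were detected, whereas KRT7, KRT19, CDH1, PAX8, WT1 and MUC16 had at most 11 counts in any library. Their summed level was 7148 to 7478 CPM in WT and 1595 to 1620 CPM in KO, nearly all of it VIM, a mesenchymal gene. The detected keratins went the other way: KRT18 was at 58.1 to 61.9 CPM in WT and 101 to 106 CPM in KO, and KRT8 at 7.11 to 7.62 CPM in WT and 10.6 to 11.5 CPM in KO. EPCAM, at a low level, was lower in KO, at 2.33 to 3.90 CPM in WT and 2.11 to 2.20 CPM in KO. The detected epithelial markers thus did not move together. Of 10 fibroblast, endothelial and blood markers, 4 (PECAM1, PTPRC, CD3E and CD68) had at most 11 counts in any library, and the sum of the list was 5142 to 5273 CPM in WT and 2677 to 2810 CPM in KO, nearly all of it COL1A1 and COL1A2. PDGFRB was at 6.93 to 7.66 CPM in WT and 1.89 to 2.02 CPM in KO. DCN and LUM, with at most 23 counts in any library, had 0 in each KO library. VWF was higher in KO, at 0.07 to 0.27 CPM in WT and 0.56 to 0.82 CPM in KO. The part of these shifts in the results was not tested. In bulk RNA, fewer cells of a type and less RNA per cell cannot be told apart, and CPM values show a gene's share of the library, not its amount per cell.

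CDK12 mRNA itself remained in the KO clone. It stood at 103, 125 and 117 CPM in the WT libraries and at 99.0, 93.0 and 102 CPM in the KO libraries. The groups did not overlap, although the highest KO library and the lowest WT library were close, and the log2 fold change was -0.23 (SE 0.06, edgeR quasi-likelihood test, adjusted p = 0.00082). A count over the whole gene does not check an edit within exon 1.

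Most of the 50 genes differed between KO and WT, and by little. By the edgeR quasi-likelihood test with an adjusted p under 0.05, 26 genes were lower in KO (52% of the members, against 32% of all genes tested) and 8 were higher (16%, against 31.9%). The median log2 fold change was -0.13, beside 0.00044 for all genes tested. The shift was narrow: 49 of the 50 genes (98%) lay within 0.5 of no change on the log2 scale, where 66.2% of all genes tested did. In 36 members the WT and KO libraries did not overlap (29 lower and 7 higher in KO, 72% of the members, against 66.4% of all genes tested). In the exact permutation test each of these 36 reached p = 0.1, the smallest that 3 libraries against 3 can give. At a log2 fold change past 1 together with the adjusted p, 1 member was called lower (7.73% of all genes were) and 0 higher (8.3% of all genes were). The single member past that threshold was ELL2. At a log2 fold change of at least 0.2 in size, 6 members were higher (28.1% of all genes were) and 19 lower (27.7% of all genes were).

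**Figure D1:**
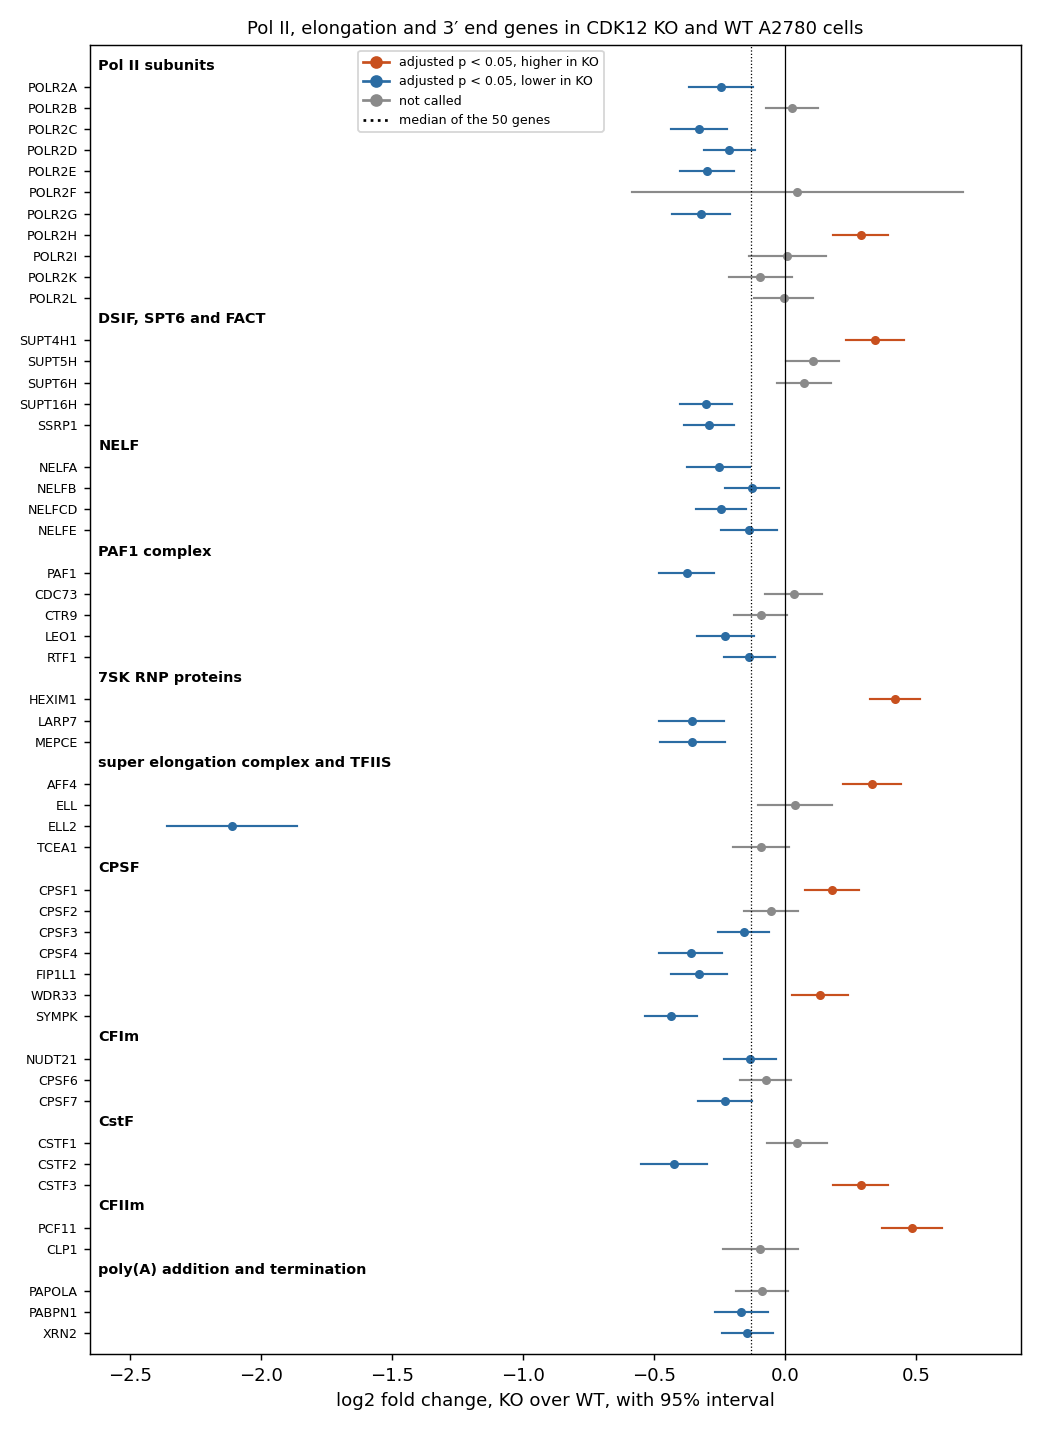
Log2 fold change of KO over WT (horizontal axis) for each of the 50 genes, grouped by role, with points for the estimate and bars for the 95% interval. ELL2 stands alone at -2.11, the other genes lie between -0.43 and 0.49, and the dotted line marks the median of -0.13.

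The comparison was also made among genes of similar level. All but ELL2 and POLR2F exceeded 20 CPM on average, and among the 8179 tested genes at that level or above, 37.8% were lower and 32.2% were higher in KO, with a median of -0.03. The groups by role below and the further lists are set beside all genes tested, where lower calls were fewer (32%). Of these 8179 genes, 82.2% lay within 0.5 of no change on the log2 scale, against 98% of the members. The WT and KO libraries did not overlap in 72.0% of these 8179 genes, about the share of the members (72%). The median size of change without its sign was 0.20 for the members, 0.22 for tested genes at 20 CPM or more and 0.32 for all genes tested. Relative to the WT mean, the median of the members was -0.10, -0.15 and -0.12 in KO replicates 1, 2 and 3. The downward shift was therefore present in each KO library. WT replicate 2 was the highest WT library for 29 of the 50 genes.

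**Figure D2:**
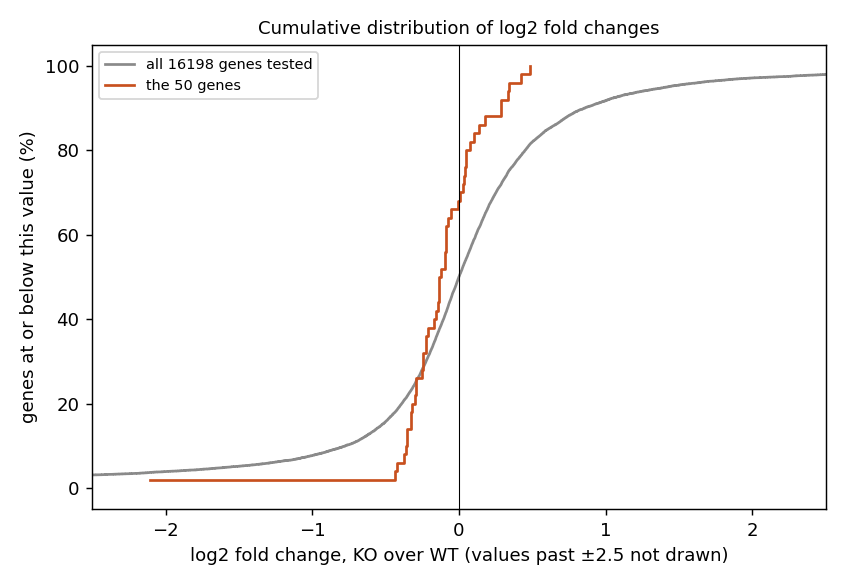
Share of genes (vertical axis, percent) at or below each log2 fold change of KO over WT (horizontal axis), for the 50 genes and for all 16198 genes tested. The curve of the 50 genes is steeper and lies to the left over most of its course, with 34 of them below 0.

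Among the 11 Pol II subunits, 5 were lower in KO (45.5%, against 32% of all genes tested), 1 was higher (9.09%, against 31.9%) and 5 were not called. At 20 CPM or more, 37.8% of tested genes were lower and 32.2% higher. POLR2A encodes the largest subunit, which bears the catalytic centre and the C-terminal domain. Its level was 397, 515 and 449.5 CPM in WT and 389, 376 and 384 CPM in KO. The groups did not overlap, but the WT libraries were spread widely (coefficient of variation 13.1%) and WT replicate 1 lay just above the highest KO library. The log2 fold change was -0.24 (SE 0.06, adjusted p = 0.00065), and it was -0.14 without WT replicate 2 and -0.34 without WT replicate 1, with the call kept in both. POLR2B, the second largest subunit, which forms the active centre together with POLR2A, showed no such difference: its groups overlapped and its log2 fold change was 0.03 (95% interval -0.07 to 0.13).

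POLR2C belongs to the assembly platform of the enzyme. It was measured at 91.3, 95.9 and 90.6 CPM in WT and 73.0, 78.0 and 70.3 CPM in KO, with every KO library below every WT library (log2 fold change -0.33, SE 0.05, adjusted p = 2.18e-06). POLR2G, which with POLR2D forms the stalk that protrudes from the enzyme, had 88.7, 80.5 and 80.6 CPM in WT and 67.6, 69.1 and 63.8 CPM in KO, again without overlap (-0.32, SE 0.05, adjusted p = 5.51e-06). Its stalk partner POLR2D fell by 0.21 on the log2 scale, and POLR2E, a subunit shared by all 3 nuclear polymerases, fell by 0.29.

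POLR2H, likewise shared by the nuclear polymerases, was the sole subunit that rose. It stood at 114, 107 and 111 CPM in WT and at 133, 145 and 129 CPM in KO, without overlap, and its log2 fold change was 0.29 (SE 0.05, adjusted p = 1.08e-05). The small subunits POLR2I, POLR2K and POLR2L were not called, with log2 fold changes of 0.01, -0.09 and -0.0031. POLR2F held 84 counts over all libraries (0.62 CPM in both groups), too few to show a difference: the 95% interval of its log2 fold change ran from -0.58 to 0.68. A subunit of this enzyme at so low a count is not a usable measure of its mRNA, and why the count is low was not tested.

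**Figure D3:**
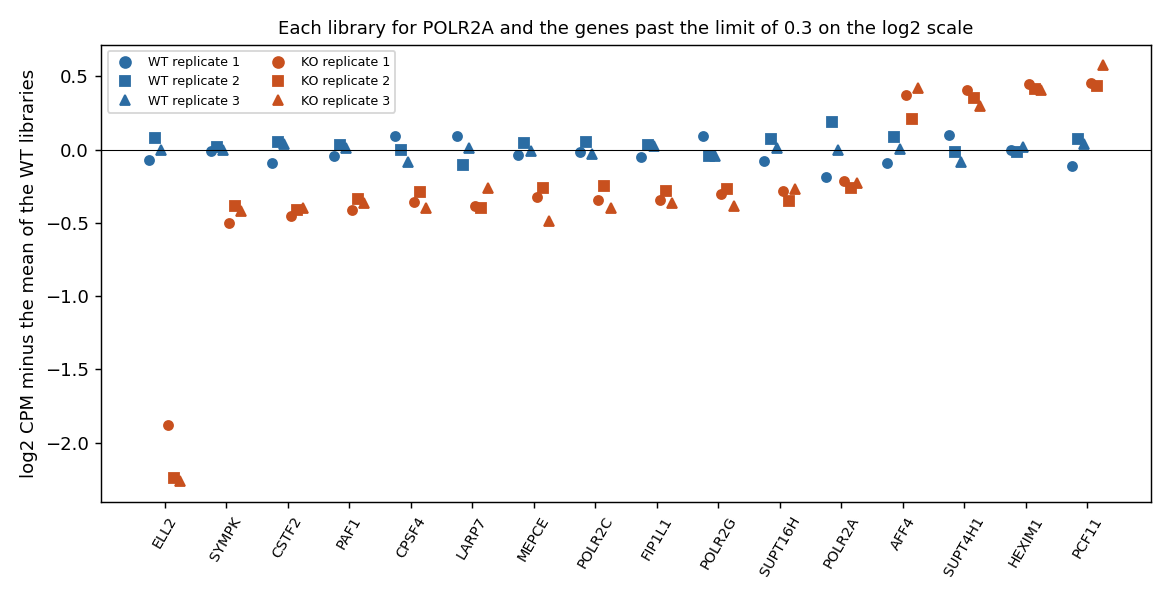
Log2 CPM of each library minus the mean of the WT libraries (vertical axis) for POLR2A and the 15 genes called with a change of 0.3 or more in size on the log2 scale. Circles, squares and triangles are replicates 1, 2 and 3, blue for WT and orange for KO, and in none of these genes do the groups overlap, with POLR2A the closest.

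DSIF, SPT6 and FACT stay with the polymerase through the gene. The small and the large subunit of DSIF, SUPT4H1 and SUPT5H, both had positive log2 fold changes, but SUPT4H1 alone passed the test. SUPT4H1 stood at 65.6, 60.7 and 57.9 CPM in WT and 81.4, 78.2 and 75.5 CPM in KO. All KO libraries lay above all WT libraries (log2 fold change 0.35, SE 0.05, adjusted p = 1.90e-06). SUPT5H was at 0.11 on the log2 scale with overlapping groups and an adjusted p of 0.064, which became 0.016 without WT replicate 2 and 0.041 without KO replicate 1. SUPT6H, the histone chaperone SPT6, was at 0.07 and not called, but was called at 0.13 without WT replicate 2 (adjusted p = 0.026).

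FACT removes and replaces histone dimers in front of and behind Pol II, and both of its subunits were lower in KO by nearly the same amount. SUPT16H had 388, 432 and 413 CPM in WT and 338, 322 and 341 CPM in KO, without overlap (log2 fold change -0.30, SE 0.05, adjusted p = 2.42e-06). SSRP1, the other subunit, was at -0.29 on the log2 scale (adjusted p = 2.72e-06), with no overlap either. Both were among the most abundant members per length, at 206 and 241 TPM (counts per exon length, scaled to the same sum in every library) in WT.

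All 4 subunits of NELF, the complex that holds paused Pol II, were called lower in KO, by small amounts. Of all genes tested, 32% were called lower. The log2 fold changes were -0.25 for NELFA, -0.24 for NELFCD, -0.14 for NELFE and -0.12 for NELFB. For NELFE the groups overlapped. The calls of NELFA and NELFCD held in all 14 alternative settings. NELFB kept its call in 5 of 14 and lost it without WT replicate 2, KO replicate 1 or KO replicate 3 (adjusted p up to 0.104). NELFE kept its call in 6 of 14 and lost it without WT replicate 1 or 2 or KO replicate 1 or 3 (adjusted p up to 0.103). The exons of NELFCD overlap those of CTSZ on the opposite strand over 97.4% of their length, with 20726 counts for NELFCD and 12525 for CTSZ. The study describes stranded reads, but whether the counting used strand is not given in the sources used here. Reads of the pair may therefore not be separated. The same limit applies to smaller overlaps with genes on the opposite strand. POLR2L shares 22.8% of its exon length with CD151 (13030 and 15827 counts). POLR2I shares 19.1% with TBCB (3613 and 10901 counts), and WDR33 25.7% with SFT2D3 (28317 and 1906 counts).

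The PAF1 complex rides on elongating Pol II and supports histone modification and 3′ end processing. PAF1, its name-giving subunit, had 77.6, 81.6 and 80.4 CPM in WT and 59.9, 63.1 and 61.9 CPM in KO. The groups were far apart compared with their spread (log2 fold change -0.37, SE 0.05, adjusted p = 1.77e-07). LEO1 fell by 0.23 and RTF1 by 0.13 on the log2 scale, the latter without a call when WT replicate 2 (adjusted p = 0.062) or KO replicate 3 (0.087) was left out, or with library totals alone (0.095). CDC73 (0.03) was not called, and its groups overlapped. CTR9 (-0.09) was not called either, and was called at -0.12 without WT replicate 1.

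The proteins of the 7SK RNP, the particle that keeps P-TEFb inactive, moved in opposite directions. HEXIM1 is the subunit that inhibits CDK9, and it was higher in KO: 123, 122 and 125 CPM in WT against 168, 164 and 163 CPM in KO. The libraries of each group lay within a few CPM of each other, with a coefficient of variation of 1.26% in WT and 1.54% in KO (log2 fold change 0.42, SE 0.05, adjusted p = 2.36e-09). HEXIM1 is a gene of 1 exon.

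LARP7 and MEPCE bind and cap the 7SK RNA and keep it stable, and both were lower in KO. LARP7 was at 56.9, 49.7 and 53.8 CPM in WT and 40.9, 40.4 and 44.4 CPM in KO (log2 fold change -0.35, SE 0.06, adjusted p = 6.57e-06). MEPCE was at 50.9, 54.0 and 51.9 CPM in WT and 41.6, 43.5 and 37.3 CPM in KO (-0.35, SE 0.06, adjusted p = 6.18e-06). Neither gene had overlapping groups. For MEPCE, 61.3% of its exon length also lies in a gene of the same strand in GENCODE that is not among the genes listed, as does 63.7% of that of SUPT4H1 and 45.9% of that of NUDT21. What this does to their counts was not tested.

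The super elongation complex joins P-TEFb to an AFF scaffold and an ELL protein, which keeps Pol II from pausing. Of its members, ELL2 was lower, AFF4 was higher and ELL was not called. ELL2 stood at 11.5, 12.8 and 12.1 CPM in WT and at 3.30, 2.56 and 2.53 CPM in KO, from 316, 383 and 134 counts against 81, 69 and 45. The highest KO library was far below the lowest WT library. Its level fell by 76.8% (log2 fold change -2.11, SE 0.12, 95% interval -2.36 to -1.86, adjusted p = 2.69e-16), and leaving out each library in turn gave -2.25 to -2.03. The 4 pseudogenes of ELL2 listed held at most 1 count each over all libraries.

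The paralog ELL, in contrast, had overlapping groups and a log2 fold change of 0.04 (95% interval -0.10 to 0.18). Per length, ELL was at 17.1 ± 1.73 TPM in WT and 17.9 ± 0.806 TPM in KO, and ELL2 at 5.90 ± 0.381 and 1.41 ± 0.227 TPM (mean ± SD, n = 3), so ELL2 was the lower of the pair in both groups. AFF4, the scaffold, rose: 157, 178 and 168 CPM in WT against 217, 193 and 224 CPM in KO, without overlap (log2 fold change 0.33, SE 0.05, adjusted p = 3.30e-06). TCEA1 (TFIIS), which lets backtracked Pol II cut its transcript and resume, was not called (-0.09).

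Of the 18 factors of 3′ end processing, 9 were lower (50%, against 32% of all genes tested), 4 higher (22.2%, against 31.9%) and 5 not called. The CPSF complex recognises the poly(A) signal and cuts the transcript. Of the 7 members grouped with it, 4 were lower (57.1%, against 32% of all genes tested) and 2 higher (28.6%, against 31.9%). SYMPK (symplekin) is the scaffold that links CPSF to CstF, and it showed the clearest decrease in this complex. Its values were 143, 145 and 144 CPM in WT and 102, 110.3 and 108 CPM in KO, with a coefficient of variation of 0.915% among the WT libraries (log2 fold change -0.43, SE 0.05, adjusted p = 2.89e-09).

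CPSF4 and WDR33 are the subunits that contact the AAUAAA signal, FIP1L1 binds U-rich sequence near it and the poly(A) polymerase, and they did not move together. CPSF4 had 54.4, 50.9 and 48.1 CPM in WT and 39.8, 41.7 and 38.7 CPM in KO (log2 fold change -0.36, SE 0.06, adjusted p = 3.40e-06). FIP1L1 had 82.0, 86.7 and 86.4 CPM in WT and 67.1, 69.9 and 65.9 CPM in KO (-0.33, SE 0.05, adjusted p = 1.69e-06). Neither had overlapping groups. WDR33 was called higher at 0.14, but its groups overlapped and the call was lost without WT replicate 1 or 3 or KO replicate 1 or 3 (adjusted p up to 0.176).

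CPSF1, the large scaffold of the signal-recognition part, rose by 0.18 on the log2 scale (adjusted p = 0.0021). CPSF3, the endonuclease, fell by 0.16 (adjusted p = 0.0053), and CPSF2, its inactive partner, was not called at -0.05 (95% interval -0.15 to 0.05). All 3 genes of CFIm, which binds UGUA elements upstream of the cleavage site and influences which site is used, had negative log2 fold changes: -0.23 for CPSF7, -0.13 for NUDT21 and -0.07 for CPSF6. The first of these held its call in every setting. NUDT21 lost it without WT replicate 3 (adjusted p = 0.065) or KO replicate 2 (0.113) and with library totals alone (0.106), and CPSF6 was not called.

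CstF binds the U- or GU-rich element downstream of the cleavage site, and its 3 subunits went 3 ways. CSTF2, the RNA-binding subunit, had 40.3, 44.6 and 44.1 CPM in WT and 31.3, 32.3 and 32.5 CPM in KO, without overlap (log2 fold change -0.42, SE 0.06, adjusted p = 4.08e-07). CSTF3, the scaffold, had 88.1, 94.7 and 94.0 CPM in WT and 118, 108 and 112 CPM in KO, without overlap in the other direction (0.29, SE 0.05, adjusted p = 9.66e-06). CSTF1 was not called (0.05).

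PCF11 of CFIIm binds the phosphorylated tail of Pol II and acts in termination, and it had the largest increase of the 50 genes. Its level was 57.8, 65.5 and 64.1 CPM in WT and 85.3, 84.1 and 92.9 CPM in KO. Every KO library exceeded every WT library (log2 fold change 0.49, SE 0.06, 95% interval 0.37 to 0.60, adjusted p = 5.84e-09), and the estimate stayed between 0.42 and 0.53 when each library was left out. CLP1, the other CFIIm subunit, was not called (-0.09) and its groups overlapped. Among the last steps, the poly(A) polymerase PAPOLA was not called (-0.09), whereas the poly(A)-binding protein PABPN1 (-0.17, adjusted p = 0.0042) and the exonuclease XRN2 (-0.14, adjusted p = 0.0094) were lower. XRN2 was not called with library totals alone (adjusted p = 0.062) or after thinning all libraries to the smallest total (0.124). The exons of PABPN1 are shared over 39.3% of their length with the read-through gene BCL2L2-PABPN1, which held 126 counts against 15247 for PABPN1.

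The ends of genes are where these 3′ factors act, so the annotated ends of the members' own transcripts are of interest. In the last 40 bases of the GENCODE 44 reference transcript, AATAAA (DNA letters, sense strand) was found in 35 of the 50 genes (70%), the variant ATTAAA without AATAAA in 4 (8%) and neither in 11 (22%), where 65.5%, 14.9% and 19.6% of 12744 tested protein-coding genes had them. The sites of ELL2, the strongest decrease, of PCF11 and HEXIM1, the strongest increases, and of CSTF3, which rose against its partner CSTF2, are given with the signal in capitals, the run ending at the annotated 3′ end, and GRCh38 positions. HEXIM1 is the one of the 4 that carries the variant.
ELL2 (chr5:95885098-95885125, minus strand): cagttcAATAAAaatgttaactttgcaa
PCF11 (chr11:83185767-83185794, plus strand): acatgtAATAAAtagaatgatgaagaaa
HEXIM1 (chr17:45152074-45152099, plus strand): aattatATTAAAcatttattttgaaa
CSTF3 (chr11:33084584-33084609, minus strand): ttaaaaAATAAAaggattcagaaaca
A count per gene does not tell which of several 3′ ends a transcript used, so poly(A) site choice was not analysed here.

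Promoter windows of RefSeq (GRCh38.p14, 250 bases before to 50 after the start) were found for 43 of the 50 members. TATAAA, on either strand, occurred in 1 of them (2.33%, against 5.54% of 11165 windows of tested genes and 12.0% of 27305 windows in all). That window is the one of HEXIM1, with the match on the sense strand 29 bases before the start. The GC box GGGCGG, on either strand, occurred in 33 (76.7%, against 70.0% of tested genes and 44.6% of all), and CCGGAAG, the core of sites for ETS factors, on either strand in 15 (34.9%, against 18.7% and 10.7%). A match of letters is not evidence of a bound site. The windows of the strongest increases and of SYMPK, the strongest decrease with a window, are shown because they set the single TATA-containing promoter beside TATA-less ones that moved in either direction, and capitals mark TATAAA and GC boxes.
HEXIM1 (chr17:45148225-45148524, plus strand): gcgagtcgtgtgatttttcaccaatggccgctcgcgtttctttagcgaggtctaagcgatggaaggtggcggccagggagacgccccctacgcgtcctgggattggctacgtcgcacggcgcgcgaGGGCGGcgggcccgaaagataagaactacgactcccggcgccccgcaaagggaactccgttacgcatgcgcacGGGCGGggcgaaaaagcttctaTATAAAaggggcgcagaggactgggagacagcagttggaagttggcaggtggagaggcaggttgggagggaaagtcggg
PCF11 (chr11:83156881-83157180, plus strand): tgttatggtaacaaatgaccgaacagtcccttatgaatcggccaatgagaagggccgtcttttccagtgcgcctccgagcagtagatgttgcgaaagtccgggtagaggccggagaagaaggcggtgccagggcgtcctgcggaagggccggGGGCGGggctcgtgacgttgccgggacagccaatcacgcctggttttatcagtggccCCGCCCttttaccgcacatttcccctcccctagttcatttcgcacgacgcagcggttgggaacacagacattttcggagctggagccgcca
SYMPK (chr19:45863098-45863397, minus strand): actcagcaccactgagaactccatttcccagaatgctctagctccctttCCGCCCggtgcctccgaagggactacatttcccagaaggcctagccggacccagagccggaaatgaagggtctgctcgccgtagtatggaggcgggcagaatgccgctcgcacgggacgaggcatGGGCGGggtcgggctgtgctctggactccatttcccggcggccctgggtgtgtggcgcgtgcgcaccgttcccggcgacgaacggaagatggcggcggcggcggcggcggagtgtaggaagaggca
All of these windows hold a pair of GC boxes.

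Per exon length, the members spanned a wide range of levels that changed little between the groups. POLR2L was the most abundant at 291 ± 17.7 TPM in WT and 299 ± 21.6 TPM in KO, followed in WT by SSRP1 (241), SUPT16H (206), XRN2 (190.2) and POLR2A (188), the last 3 of which do not differ beyond the spread of POLR2A (SD 25.5). Within CstF the order was the same in both groups and the gap between CSTF3 and CSTF2 was wider in KO: CSTF3 exceeded CSTF2 in WT (70.7 ± 4.77 against 54.2 ± 4.40 TPM) and in KO (89.2 ± 4.47 against 41.7 ± 0.774 TPM), and CSTF1 was lowest in both groups (33.3 ± 1.16 and 35.7 ± 1.22 TPM). Within DSIF, SUPT4H1 was above SUPT5H in both groups (102 ± 3.64 against 78.2 ± 4.23 TPM in WT, 135 ± 5.41 against 87.1 ± 3.40 TPM in KO). Within the 7SK RNP, HEXIM1 was the highest (118 ± 5.92 TPM in WT, 163 ± 3.56 TPM in KO), before MEPCE (53.6 and 43.2 TPM) and LARP7 (22.8 and 18.5 TPM). Merged exon lengths include 3′ UTR that not every transcript uses, so these levels are approximate.

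**Figure D4:**
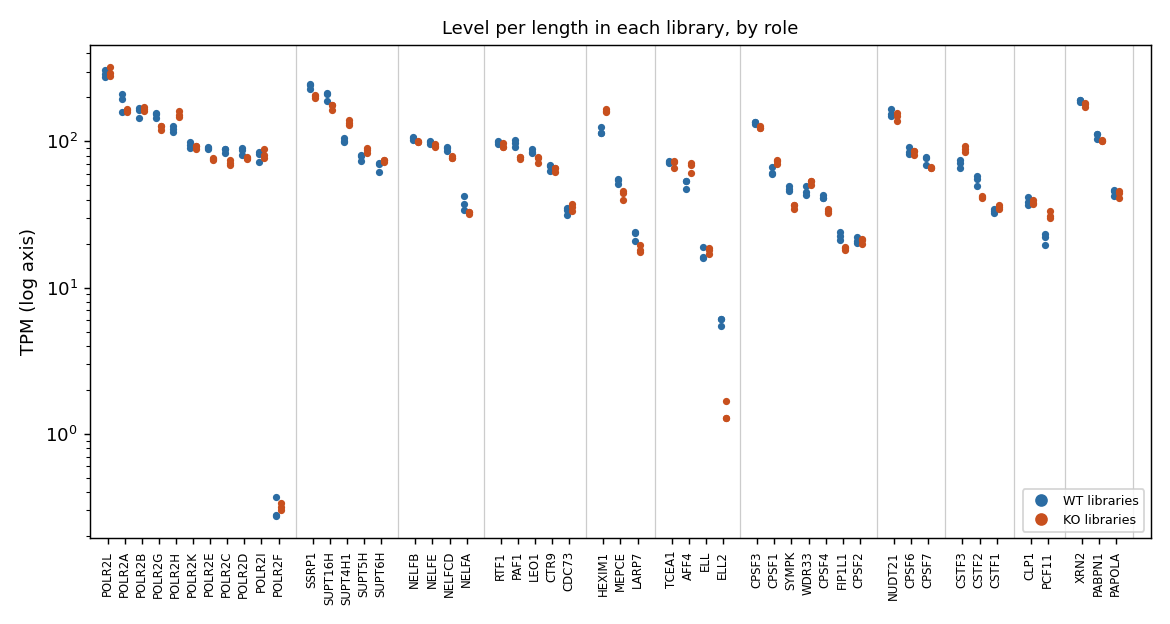
Level per exon length in TPM (vertical log axis) of each library for the 50 genes, grouped by role and ordered by the WT level, with WT in blue and KO in orange. Subunits of one complex lie within about an order of magnitude of each other apart from ELL2 and POLR2F, and the gap between WT and KO is widest for ELL2 (5.90 against 1.41 TPM).

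Long genes are the ones CDK12 is best known for, so the members were divided at a gene span of 50 kb. Of the 16 longer members, 3 were higher (18.8%) and 5 lower (31.2%), with a median of -0.07, where 34.1% of all tested genes of that span were higher and 36.7% lower, with a median of -0.01. Of the 34 shorter members, 5 were higher (14.7%) and 21 lower (61.8%), with a median of -0.16, where 31.0% of all tested genes of that span were higher and 30.0% lower, with a median of 0.01. The share of lower genes was thus near that of all genes among the longer members and above it among the shorter ones, and the difference between the spans was not tested. The Spearman correlation of span with log2 fold change was 0.158 over the 50 members and -0.06 over 15989 tested genes. Genes are not independent replicates, and these are descriptions. ELL2 spans 76.8 kb.

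The members lie on 19 chromosomes, with 8 on chromosome 11 and 6 on chromosome 19. The study karyotyped both lines and describes a clone with a nearly doubled chromosome number. Its karyotype of the clone also lists gains and losses of single chromosomes that it does not list for the parent. Copy number by gene was not analysed here. Each member was therefore set beside the 10 nearest tested genes on either side. These neighbour medians ran from -0.36 to 0.31, were negative for 38 members and had the member's own sign for 30. As 34 of the members were themselves negative, many shared signs arise without any link between a gene and its neighbours. Pearson's r of member and neighbours was -0.18 (Spearman's rho 0.12) over the 50 members, where r was 0.18 over 15986 tested genes. The 2 measures differ in sign over the members, and r without ELL2 was not computed. ELL2 departed most from its surroundings. Its neighbours had the highest median of all members, 0.31, and chromosome 5 as a whole had a median of 0.27, while ELL2 was at -2.11. HEXIM1 (neighbours -0.14) also went against the median of its neighbours, although the gene next to it, HEXIM2, was at 0.95 (neighbours 0.13). POLR2H (neighbours 0.18, chromosome 3 median 0.25) went with its neighbours.

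**Figure D5:**
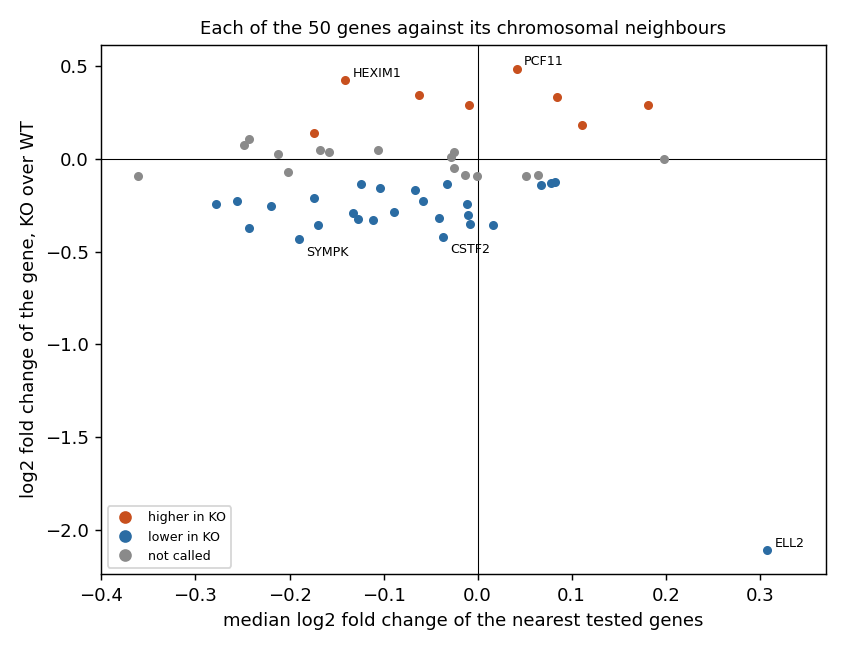
Log2 fold change of each of the 50 genes (vertical axis) against the median log2 fold change of its 10 nearest tested genes on either side (horizontal axis), coloured by call. ELL2 lies at the far right and the bottom, at 0.31 and -2.11, and the other members lie between -0.43 and 0.49 on the vertical axis.

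Further genes of the same pathways, from lists that are not among the 50, also changed in both directions. Some of their changes were larger than that of any member except ELL2. None of them passed a log2 fold change of 1. Of 35 tested genes for other Pol II assembly, elongation and tail-phosphatase functions (37 listed), 11 were higher (31.4%, close to the 31.9% of all genes tested) and 15 lower (42.9%, against 32%), with a median of -0.08. The lowest were IWS1 (-0.67), the partner of SPT6, and GPN1 (-0.66), needed for nuclear import of Pol II. The highest were HEXIM2 (0.95) and RPRD2 (0.50), a protein that binds the Pol II tail. HEXIM2, the paralog of HEXIM1, stands next to it on chromosome 17 (45160700 to 45170040) and rose from 16.3 ± 1.01 to 32.0 ± 1.09 CPM (adjusted p = 1.25e-13).

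Of 22 other 3′ end genes, 6 were higher (27.3%) and 8 lower (36.4%), near the 31.9% and 32% of all genes tested, and the median was 0.01. PPP1R10 (0.75), a phosphatase regulator in termination, and CSTF2T (0.72) were the highest, and SSU72 (-0.33), a phosphatase of the Pol II tail, and NCBP1 (-0.25), a cap-binding protein, were the lowest. CSTF2T is the paralog of CSTF2 and moved the opposite way: it rose from 28.0 ± 2.40 to 45.8 ± 1.13 CPM (adjusted p = 2.47e-11), while CSTF2 was lower. Integrator cleaves transcripts of paused Pol II, and 17 of 18 genes listed with it were tested. The list also holds genes other than the INTS subunits, NABP2 and INIP among them. Of the 17, 9 were lower (52.9%, against 32% of all genes) and 2 higher (11.8%, against 31.9%), with a median of -0.16. The lowest were INTS8 (-0.68) and NABP2 (-0.32), and the highest were INTS3 (0.22) and INIP (0.17). INIP was not called without WT replicate 3 (adjusted p = 0.066) or KO replicate 1 (0.052).

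A list of 9 genes holds kinases of the Pol II tail, their cyclins and MNAT1, a further partner of CDK7. Of these, 6 were lower, MNAT1 among them (66.7%, against 32% of all genes), and 1 was higher (11.1%, against 31.9%), with a median of -0.17. The higher one was CDK7 (0.51), the kinase of TFIIH that acts at initiation, whereas its cyclin CCNH had the lowest value (-0.70). CDK7 rose from 31.8 ± 1.23 to 45.6 ± 1.13 CPM and CCNH fell from 24.4 ± 0.768 to 15.1 ± 1.87 CPM, although both genes lie on chromosome 5, as do ELL2 and AFF4. CCNK, the cyclin of CDK12 and CDK13, was at -0.34 (adjusted p = 4.77e-06). CDK9 was called lower at -0.17 with overlapping groups, CDK13 was not called (-0.06), and of the cyclins of CDK9, CCNT2 was not called (-0.04) and CCNT1 (-0.12) was called with an adjusted p of 0.041.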

How the data were processed

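RNA-seq of 3 WT and 3 CDK12 KO libraries of A2780 cells was used, grouped by the genotype in the labels. The file the authors deposited holds raw counts of reads for 60483 Ensembl genes, made with FastQC, STAR alignment to GRCh38 and HTSeq-Count; their versions, the annotation release, and the strand and multimapping settings are not given in the sources used here. Identifiers were matched without version to GENCODE 44 (56321 genes, 93.1%).

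Counts were filtered with filterByExpr (minimum count 10, minimum total 15), scaled with TMM and tested in R 4.3.3 with edgeR 4.0.16 (quasi-likelihood test, two-sided, Benjamini-Hochberg over 16198 genes), after a check on simulated counts. The biological coefficient of variation was 4.35%. CPM used TMM-scaled totals, and TPM used merged exon lengths. Reads carried no molecular identifiers, so floors of 3 counts cover counting error only. The study's own methods used voom/limma and a log2 fold change past 1 as a further threshold, both kept as alternatives. Other alternatives were DESeq2 1.42.0, other scalings and filters, thinning to the smallest total, an adjusted p under 0.01 and omission of each library.

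Values in every library were given for CDK12, POLR2A and called members (adjusted p under 0.05) that changed by 0.3 or more in size on the log2 scale, and, chosen after their values were seen, for POLR2H and CSTF3. From each further list the genes named are the 2 highest and 2 lowest called, and beyond these, chosen after their values were seen, CDK9, CDK13, CCNT2 and MNAT1. The members, lists and markers were chosen with earlier results of these data known, so no list was tested. Promoters and transcript ends come from RefSeq (GRCh38.p14) and GENCODE 44.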

Additional observations from a re-analysis of the deposited data

How the results depend on the processing

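No paired analysis was possible because the library numbers in the labels, 1 to 6, tie no WT library to a KO library. Over 14 settings, 36 of the 50 members kept their direction and call in every one, among them 28 of the 34 called members. With the fold threshold, 0 members were called higher and 1 lower, in place of 8 and 26; an absolute log2 fold change of at least 0.2, a limit chosen after seeing the data, left 6 and 19. Without 1 library at a time, 7 to 10 members were called higher and 23 to 26 lower, and the members' median ran from -0.13 to -0.11. It was -0.10 with upper-quartile scaling and -0.084 with library totals alone, whose construction raises the KO libraries relative to TMM. The median of all genes tested rose as well in these settings, to 0.028 and 0.047. The members' median minus that of all genes was -0.1295 and -0.1305, against -0.1290 in the main fit. Members that changed sign were uncalled in all settings. Without 1 library at a time, POLR2B ran from -0.024 (without WT replicate 1) to 0.060, POLR2F from -0.013 (without WT replicate 2) to 0.104, POLR2I from -0.057 (without KO replicate 2) to 0.057, CDC73 from -0.0025 (without WT replicate 1) to 0.083, and POLR2L from -0.071 to 0.042 (without KO replicate 3). POLR2L was also 0.025 with upper-quartile scaling, 0.020 with 10 counts in every library, 0.042 with library totals, 0.00042 with no filter and 0.060 after thinning. Among the further lists, the lower 3′ end genes went from 8 to 5 with upper-quartile scaling, library totals, 10 counts in every library or an adjusted p under 0.01, and the higher Integrator genes from 2 to 4 with library totals and to 1 without WT replicate 3 or KO replicate 1. POLR2F was not tested after thinning or with 10 counts in every library. Depth limits POLR2F most, with 84 counts in total, whereas the other members held 1028 to 57815 counts in total.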
